A study of Mus musculus with 19 samples.

Results

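The genes described here are 33 mouse genes of cholesterol and fatty acid synthesis that are targets of the SREBP transcription factors, act in the same pathways or control those factors. They form a list of named genes, matched by Ensembl identifier to GENCODE M21 symbols. All 33 were found among 55401 gene identifiers, and all 33 were among the 18039 genes that passed the filter on low counts. By role they fell into 18 enzymes of sterol synthesis, 6 regulators and carriers, and 9 genes of fatty acid and glycerolipid synthesis. C2C12 cells, a line of mouse myoblasts with the genotype label WT, had their RNA sequenced in bulk after selection of polyadenylated transcripts, in 19 libraries of 7 groups. The drug was 100 nM thapsigargin, a blocker of the calcium pump that fills the endoplasmic reticulum (ER). Drug groups were taken after 2 h (3 libraries), 6 h (3) and 12 h (2). A recovery group (3) had the drug for 6 h and then drug-free medium for 48 h. Groups with the vehicle DMSO were taken at 2 h (3), 6 h (3) and 12 h (2). No DMSO group has the length of the recovery schedule, so the removal of the drug and the longer culture cannot be told apart. The labels do not say that replicates were separate cultures. The p-values therefore measure the spread between these libraries, which may be technical.

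Cholesterol is built from acetyl-CoA through mevalonate, squalene and lanosterol by enzymes that sit largely in the ER membrane. The SREBP factors, made from Srebf1 and Srebf2, are themselves ER membrane proteins. When ER sterol is low, the escort Scap carries them to the Golgi, where proteases release the part that enters the nucleus and binds the promoters of these genes. Insig1 and Insig2 hold Scap and SREBP in the ER when sterol is plentiful, and Insig1 is itself an SREBP target. Myoblasts grow in serum and meet their need for sterol and unsaturated fatty acids both by uptake and by synthesis.

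Libraries held between 17.31 and 40.96 megareads assigned to genes, with the shallowest at 12 h. Mitochondrial transcripts took 14.9% of gene reads in recovery replicate 1 and 15.8% in DMSO 2 h replicate 3, against 1.41 to 3.07% in the other 17. Libraries also differed in their balance of long against short transcripts. For each gene the log2 level was taken relative to its mean over the 19 libraries. The excess below is its median over genes of at least 7078 exon bases minus that over genes of at most 2983. It is therefore relative to the series and not an absolute share of reads. The log2 excess of long over short genes was 0.87 to 0.97 in thapsigargin and 0.63 to 1.07 in DMSO at 2 h, -1.18 to 0.03 in thapsigargin and -1.36 to -0.64 in DMSO at 6 h, 0.46 to 0.64 in thapsigargin and 0.64 to 0.65 in DMSO at 12 h, and -1.51 to -0.13 in recovery. The 7 myoblast markers averaged at least 1 CPM over all libraries, and 6 of the 7 did so within each of thapsigargin at 6 h, thapsigargin at 12 h and DMSO at 12 h. Summed over the 7, the level was 6540 to 11500 CPM in thapsigargin and 13600 to 20100 CPM in DMSO at 6 h, and 2250 to 2480 CPM in thapsigargin and 5450 to 5490 CPM in DMSO at 12 h. The part of this marker difference in the results below was not tested. CPM here is counts per megaread of gene reads on library sizes scaled by TMM, the trimmed mean of M values. Sums over the 6 adipocyte markers were 0 to 1.61 CPM across libraries, highest in DMSO at 12 h, and those over the 4 hepatocyte markers were 0 to 0.403 CPM. Hspa5, the main ER chaperone, rose by 2.07 ± 0.34 on the log2 scale at 2 h, 3.37 ± 0.36 at 6 h and 4.17 ± 0.46 at 12 h against DMSO, with adjusted p of 0.0021, 7.6e-06 and 1.5e-05. Chac1 and Ddit3, named with Hspa5 as checks that the drug acted, rose by 3.66 and 4.44 at 6 h (adjusted p = 1.8e-06 and 0.00042, edgeR). Between the DMSO groups these 2 genes were also higher at 6 h than at 2 h, by 4.04 and 3.08 (adjusted p = 5.7e-06 and 0.0027, edgeR). For Hspa5 that difference was 0.68 (adjusted p = 0.098). The cause of this change in the vehicle was not tested. In bulk RNA, fewer cells of a type and less RNA per cell cannot be told apart. All tests below come from 1 edgeR quasi-likelihood fit of all 19 libraries, and ± on a log2 difference is its standard error. A gene is called when its p, adjusted over the 18039 genes by the Benjamini-Hochberg method, is under 0.05.

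Per length of transcript (RPKM, reads per 1000 exon bases per megaread), the members spanned a wide range in DMSO at 6 h. Scd2, a stearoyl-CoA desaturase, was highest at 142 ± 37.8 RPKM (SD, n = 3). Fads2, a desaturase of polyunsaturated fatty acids, had 81.7 ± 5.48 RPKM, and the fatty acid synthase gene Fasn had 57.5 ± 13.9 RPKM. Of the regulators, Srebf2 stood at 52.4 ± 9.30 RPKM, and Srebf1 at 22.1 ± 2.81 RPKM. The sterol enzymes ran on this scale downward from Acat2, a cytosolic thiolase at the entry of the pathway, with 37.4 ± 6.39 RPKM. Lowest among them was Fdps, the farnesyl diphosphate synthase, with 1.26 ± 0.227 RPKM. Lpin1, a phosphatidate phosphatase that makes diacylglycerol, was lowest of all at 0.387 ± 0.136 RPKM. The exons of Fdps overlap another annotated gene on the same strand over 26.7% of their length, and those of Tm7sf2, a sterol reductase, over 12.1%. Genes on the opposite strand overlap 18.3% of the exon bases of Fdft1, 13.2% of those of Scap and 12.1% of those of Hmgcs1, with smaller shares in some other members. Scd1 and Scd2 are related copies that lie on chromosome 19, at 44394455 to 44407879 and at 44293674 to 44306864. How reads that match 2 genes were counted, and whether strand was used, is not given in the sources used here, so the levels of such genes are uncertain.

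The promoters of 4 members are printed to show the letters that SREBP-related motif searches read in genes which behaved differently below. RefSeq promoters of GRCm38.p6, which reach from 250 bases before to 50 bases after the start, were held for 26 of the 33 members. Each line is the plus strand, which is the strand of these 4 genes, and is a stretch of 150 bases. Capitals mark the sterol element TCACCCCAC, the E-box CACGTG and the NF-Y box CCAAT, whose reverse complement reads ATTGG. The 150 bases are a part of the 300 searched, and matches outside them are not printed. Among those left out are the NF-Y box of Insig1 from base -216 and those of Hmgcs1 from bases -237, -176 and 10, counted from the start. The windows are chr13:119690201-119690350 for Hmgcs1, the HMG-CoA synthase, chr5:28071213-28071362 for Insig1, chrX:72918371-72918520 for the sterol dehydrogenase Nsdhl and chr3:129532205-129532354 for Elovl6, which lengthens saturated fatty acids.
Hmgcs1: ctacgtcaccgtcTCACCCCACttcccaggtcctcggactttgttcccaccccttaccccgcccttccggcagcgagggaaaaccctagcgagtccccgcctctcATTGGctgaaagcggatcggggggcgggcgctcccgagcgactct
Insig1: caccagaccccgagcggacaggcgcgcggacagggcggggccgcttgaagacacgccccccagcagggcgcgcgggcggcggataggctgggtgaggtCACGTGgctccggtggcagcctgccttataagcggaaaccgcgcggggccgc
Nsdhl: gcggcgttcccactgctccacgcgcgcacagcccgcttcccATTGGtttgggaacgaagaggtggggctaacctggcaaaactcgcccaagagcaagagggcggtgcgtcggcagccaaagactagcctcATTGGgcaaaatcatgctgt
Elovl6: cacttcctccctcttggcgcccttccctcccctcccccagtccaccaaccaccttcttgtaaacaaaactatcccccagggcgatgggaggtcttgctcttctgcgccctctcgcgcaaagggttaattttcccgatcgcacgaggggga

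The search covered both strands of every promoter entry, and a gene with several entries, such as Dhcr7 with 3, was counted when at least 1 entry held the letters. The sterol element TCACCCCAC stood in 1 of the 26 members, Hmgcs1, which is 3.85%, against 0.614% of the 27025 genes in the table. The E-box CACGTG stood in 5 members, Hsd17b7, Sc5d, Dhcr7, Scap and Insig1 (19.2%, against 8.09% of all genes). The NF-Y box CCAAT stood in 20 (76.9%, against 41.1%), and the GC box GGGCGG in 21 (80.8%, against 38.2%). Among the genes tested, 0.704% held TCACCCCAC, 11.1% held CACGTG, 42.5% held CCAAT and 64.3% held GGGCGG. The composite TGATGNAAT, which ATF4 and CEBP factors are known to bind, stood in none of the 26. It stood in 1.08% of all genes and in 0.594% of the genes tested. Of the 7 members with a promoter entry that were lower at 6 h (described below), 4 held CCAAT, 6 held GGGCGG, 1 held CACGTG and none held TCACCCCAC. A match is a run of letters in this window and not a site shown to be bound.

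After 2 h of thapsigargin the members did not move together. Lpin1 and Insig1 rose against DMSO and Elovl6 fell, while no sterol enzyme passed the test. These 3 calls compare with a background of 4.52% of all genes tested, of which 3.01% were higher and 1.51% lower. The median log2 difference over the 33 members was -0.03, against -0.04 over all genes tested. By role it was 0.07 for sterol enzymes, 0.26 for regulators and carriers and -0.27 for fatty acid and lipid genes.

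Lpin1 (chromosome 12, 16535669 to 16610966, minus strand) had 28.9, 26.2 and 29.6 CPM in thapsigargin at 2 h, against 8.69, 9.14 and 11.5 CPM in DMSO. Every drug library lay above every DMSO library, with a log2 difference of 1.53 ± 0.29 (adjusted p = 0.0058, edgeR), 2.89-fold. Insig1 (chromosome 5, 28071363 to 28078662, plus strand) had 328.9, 312.2 and 290.1 CPM in thapsigargin, against 167.1, 163.2 and 97.3 CPM in DMSO. The groups did not overlap, and the difference was 1.12 ± 0.28 (adjusted p = 0.03), 2.18-fold. Elovl6 had 64.3, 62.0 and 60.3 CPM in thapsigargin, against 85.9, 96.4 and 115.9 CPM in DMSO. Again no library overlapped, and Elovl6 fell by 0.68 ± 0.18 (adjusted p = 0.043). The lowest Insig1 and the highest Elovl6 value in DMSO both came from replicate 3, the library with a high mitochondrial share. The part of that share in either result was not tested. Without DMSO replicate 3 the difference of Insig1 was 0.91 (adjusted p = 0.1), and with total counts in place of TMM it was 1.32 (adjusted p = 0.14). Without that library and recovery replicate 1, both with a high mitochondrial share, Insig1 (0.97, adjusted p = 0.016) and Elovl6 (-0.49, adjusted p = 0.032) were called. Elovl6 was not called with total counts (-0.44, adjusted p = 0.36) or with offsets for exon length and GC content (-0.65, adjusted p = 0.17). Leaving out each of the 19 libraries in turn, Lpin1 was called 19 times, Insig1 10 times and Elovl6 6 times, with adjusted p of up to 0.11 for Insig1 and 0.15 for Elovl6.

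Several sterol genes lay apart between the 2 h groups without being called. Msmo1, a methyl sterol oxidase, had 178.8, 176.4 and 164.8 CPM in thapsigargin, against 118.1, 114.2 and 83.4 CPM in DMSO, a log2 difference of 0.72 ± 0.25 (adjusted p = 0.13). Lss, the lanosterol synthase, differed by 0.77 ± 0.31 (adjusted p = 0.21). Stard4, which carries sterol between membranes, differed by 0.83 ± 0.38 (adjusted p = 0.27). In the other direction, Nsdhl had 38.9, 35.3 and 32.4 CPM in thapsigargin, against 53.4, 58.0 and 79.2 CPM in DMSO (-0.84 ± 0.28, adjusted p = 0.11). Srebf1 had 164.7, 164.2 and 165.4 CPM in thapsigargin, against 130.8, 125.8 and 110.7 CPM in DMSO, a difference of 0.43 ± 0.18 that missed the threshold (adjusted p = 0.23). Of the 33 members, 9 were higher and 10 lower in all drug libraries, where 19.3% and 19.2% of all genes were. Of the 18 sterol enzymes, 4 had an unadjusted p under 0.05 and 0 were called by edgeR. The share of all genes at that unadjusted p was not counted, so the 4 have no background here. DESeq2 called 8 members at 2 h, 4 in each direction, Msmo1 and Nsdhl among them. It also called more of all genes than edgeR did, with the count given in the closing sections. The split of that count by direction is not given, so no change particular to the members is read from the 8.

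**Figure D1:**
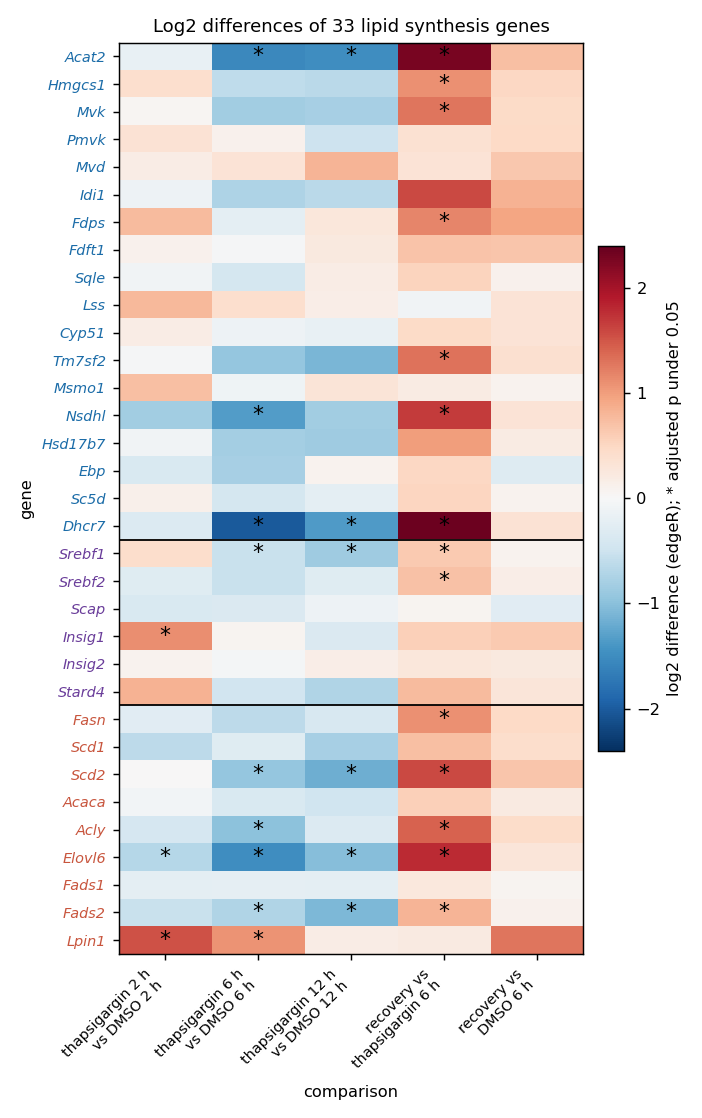
Log2 differences (edgeR, colour, in log2 units) of the 33 genes, grouped by role, in 5 comparisons, with a star where the adjusted p was under 0.05. At 6 h 28 of the 33 differences between thapsigargin and DMSO lay below 0, and between recovery and thapsigargin at 6 h 32 of 33 lay above 0. The medians over all genes tested were 0.01 and 0.04, and the shares of all genes below or above 0 are not given. Both comparisons use the same thapsigargin libraries at 6 h, so no agreement between the 2 counts is read.

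At 6 h of thapsigargin more members were lower. Of the 33, 8 fell and 1 rose, so 24.2% were called lower and 3.03% higher, where 8.79% of all genes tested were lower and 13% higher (21.8% in all). The genes that fell were the sterol enzymes Dhcr7, Acat2 and Nsdhl, the fatty acid genes Elovl6, Acly, Scd2 and Fads2, and Srebf1, while Lpin1 rose. The median difference was -0.46 over the 33 members, against 0.01 over all genes. It was -0.52 for sterol enzymes, -0.40 for regulators and carriers and -0.62 for fatty acid and lipid genes. Counted by libraries, 14 members were lower in every drug library than in every DMSO library and 2 were higher, where 16.4% and 21% of all genes were.

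Dhcr7 makes cholesterol from its immediate precursor and lies on chromosome 7 at 143823145 to 143848410 (plus strand). It had 9.27, 7.81 and 9.69 CPM in thapsigargin at 6 h, against 40.4, 37.3 and 30.2 CPM in DMSO. All drug libraries lay far below all DMSO libraries, and Dhcr7 fell by 2.01 ± 0.22 on the log2 scale, 4.03-fold (adjusted p = 8e-06, edgeR). Acat2 (chromosome 17, 12942890 to 12960747, minus strand) had 26.9, 36.4 and 35.1 CPM in thapsigargin, against 87.9, 83.9 and 113.9 CPM in DMSO. It fell by 1.54 ± 0.26 without overlap, 2.90-fold (adjusted p = 0.00056). Nsdhl (chromosome X, 72918557 to 72958514, plus strand), an enzyme of the demethylation of lanosterol, had 24.1, 16.4 and 18.5 CPM in thapsigargin, against 54.3, 59.5 and 35.1 CPM in DMSO. The lowest DMSO value still exceeded the highest drug value, and Nsdhl fell by 1.34 ± 0.28 (adjusted p = 0.0026).

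The other 15 sterol enzymes were not called at 6 h. Tm7sf2 had 8.80, 13.3 and 12.5 CPM in thapsigargin, against 21.1, 19.1 and 25.4 CPM in DMSO (-0.92 ± 0.35, adjusted p = 0.07). The sterol isomerase gene Ebp had 35.5, 56.9 and 50.2 CPM in thapsigargin, against 78.8, 72.7 and 95.9 CPM in DMSO (-0.80 ± 0.30, adjusted p = 0.075). The mevalonate kinase gene Mvk differed by -0.84 ± 0.36 (adjusted p = 0.11). In these 3 genes every drug library lay below every DMSO library. Hmgcs1, whose promoter carries the sterol element shown above, had 63.1, 30.8 and 36.9 CPM in thapsigargin, against 69.7, 92.5 and 37.5 CPM in DMSO. These groups overlapped, and the difference was -0.61 ± 0.36 (adjusted p = 0.26). The mevalonate decarboxylase gene Mvd and Lss lay on the other side of 0, at 0.33 ± 0.35 (adjusted p = 0.58) and 0.41 ± 0.31 (adjusted p = 0.41). Lss was higher in every drug library, with 54.99, 41.48 and 41.25 CPM in thapsigargin, against 38.75, 36.73 and 28.02 CPM in DMSO. Idi1, the isopentenyl diphosphate isomerase, had 11.5, 1.70 and 1.5 CPM in thapsigargin, against 8.36, 14.2 and 2.10 CPM in DMSO. With that spread inside both groups its difference of -0.74 carried a standard error of 0.84.

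Among the fatty acid genes, Elovl6 (chromosome 3, 129532355 to 129638495, plus strand) had 27.1, 25.8 and 24.8 CPM in thapsigargin at 6 h, against 64.5, 69.3 and 86.0 CPM in DMSO. It fell by 1.5 ± 0.18 without overlap, 2.83-fold (adjusted p = 2.7e-05). Acly, which makes cytosolic acetyl-CoA from citrate, had 119.2, 70.8 and 72.8 CPM in thapsigargin, against 167.2, 208.3 and 143.1 CPM in DMSO, and fell by 0.98 ± 0.22 (adjusted p = 0.0035). Fads2 had 159.7, 161.5 and 168.0 CPM in thapsigargin, against 280.6, 278.8 and 248.4 CPM in DMSO, a fall of 0.72 ± 0.18 (adjusted p = 0.0085). Neither gene's groups overlapped. Scd2 had 556.2, 323.4 and 354.7 CPM in thapsigargin, against 830.5, 951.7 and 548.7 CPM in DMSO. One drug library exceeded the lowest DMSO library, and the fall of 0.92 ± 0.30 was near the threshold (adjusted p = 0.035). Lpin1 had 10.1, 6.87 and 6.60 CPM in thapsigargin, against 4.76, 4.2 and 2.25 CPM in DMSO, and rose by 1.07 ± 0.29 (adjusted p = 0.014). Fasn, Scd1, Acaca (acetyl-CoA carboxylase) and Fads1 were not called, with differences of -0.62, -0.30, -0.37 and -0.21.

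Among the regulators, Srebf1 was called. Srebf1 had 74.2, 89.2 and 94.4 CPM in thapsigargin at 6 h, against 142.7, 117.8 and 113.4 CPM in DMSO. Its groups did not overlap, and it fell by 0.54 ± 0.18 (adjusted p = 0.047). Srebf2 had 285.2, 226.2 and 267.4 CPM in thapsigargin, against 418.7, 410.3 and 299.1 CPM in DMSO, a difference of -0.53 ± 0.22 that was not called (adjusted p = 0.11). Scap likewise lay lower in all drug libraries without a call (-0.34 ± 0.14, adjusted p = 0.11). Insig1, which was higher at 2 h, had 70.4, 44.0 and 48.8 CPM in thapsigargin at 6 h, against 54.2, 67.2 and 35.6 CPM in DMSO. The 6 h groups overlapped, with a difference of 0.06 ± 0.28 (adjusted p = 0.92).

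The calls of Dhcr7, Acat2 and Elovl6 at 6 h held under every alternative tried. With offsets that remove the trend with exon length and GC content, 16 members were called at 6 h, 14 lower and 2 higher. Sterol enzymes made up 10 of the 14 and 1 of the 2. Over all genes the same fit called 2114 lower and 2689 higher, against 1586 lower and 2341 higher with TMM. Among the members added on the lower side were Mvk (-0.76, adjusted p = 0.01), Ebp (-0.86, adjusted p = 0.012), Hsd17b7 (-0.87, adjusted p = 0.019) and Sqle, the squalene epoxidase (-0.51, adjusted p = 0.039). Srebf1 was not called with these offsets (-0.43, adjusted p = 0.19). Without the libraries with a high mitochondrial share, neither of which is a 6 h library, 17 members were called lower and 2 higher. Of these, 8 of the 17 and 1 of the 2 were sterol enzymes. Calls over all genes increased too, to 3063 lower and 3525 higher. Scaling by total counts left 3 calls at 6 h, all lower, where 832 genes were lower and 2067 higher. Leaving out each of the 19 libraries in turn, Nsdhl, Acly and Fads2 were called every time, and Srebf1 4 times (adjusted p up to 0.19). Scd2 was called 11 times, and not without DMSO replicate 1 or 2, thapsigargin replicate 2 or 3 or any 12 h library (adjusted p up to 0.13). Lpin1 was called 17 times, and not without DMSO replicate 3 (adjusted p = 0.061) or thapsigargin replicate 1 (adjusted p = 0.067).

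**Figure D2:**
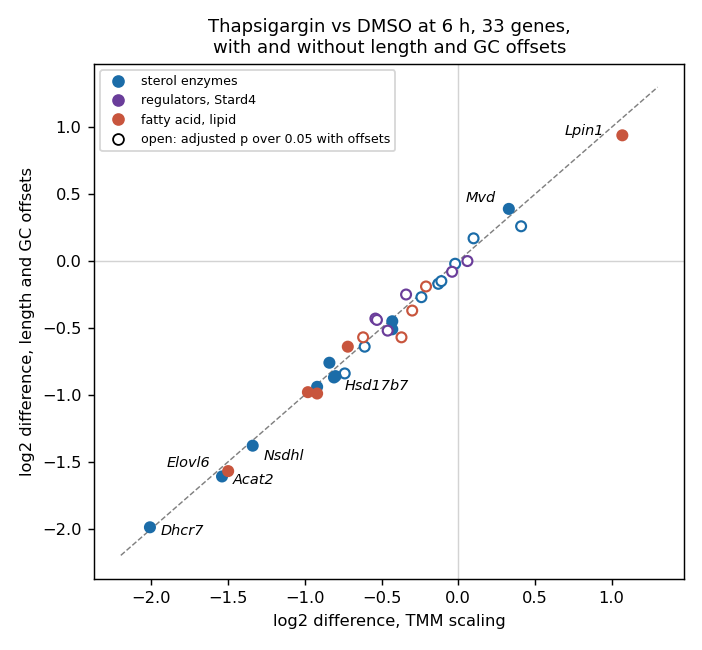
Log2 differences between thapsigargin and DMSO at 6 h for the 33 genes with TMM scaling (x axis) and with length and GC offsets (y axis), both in log2 units. The genes stay close to the diagonal, with Dhcr7, Acat2, Elovl6 and Nsdhl lowest on both axes.

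**Figure D3:**
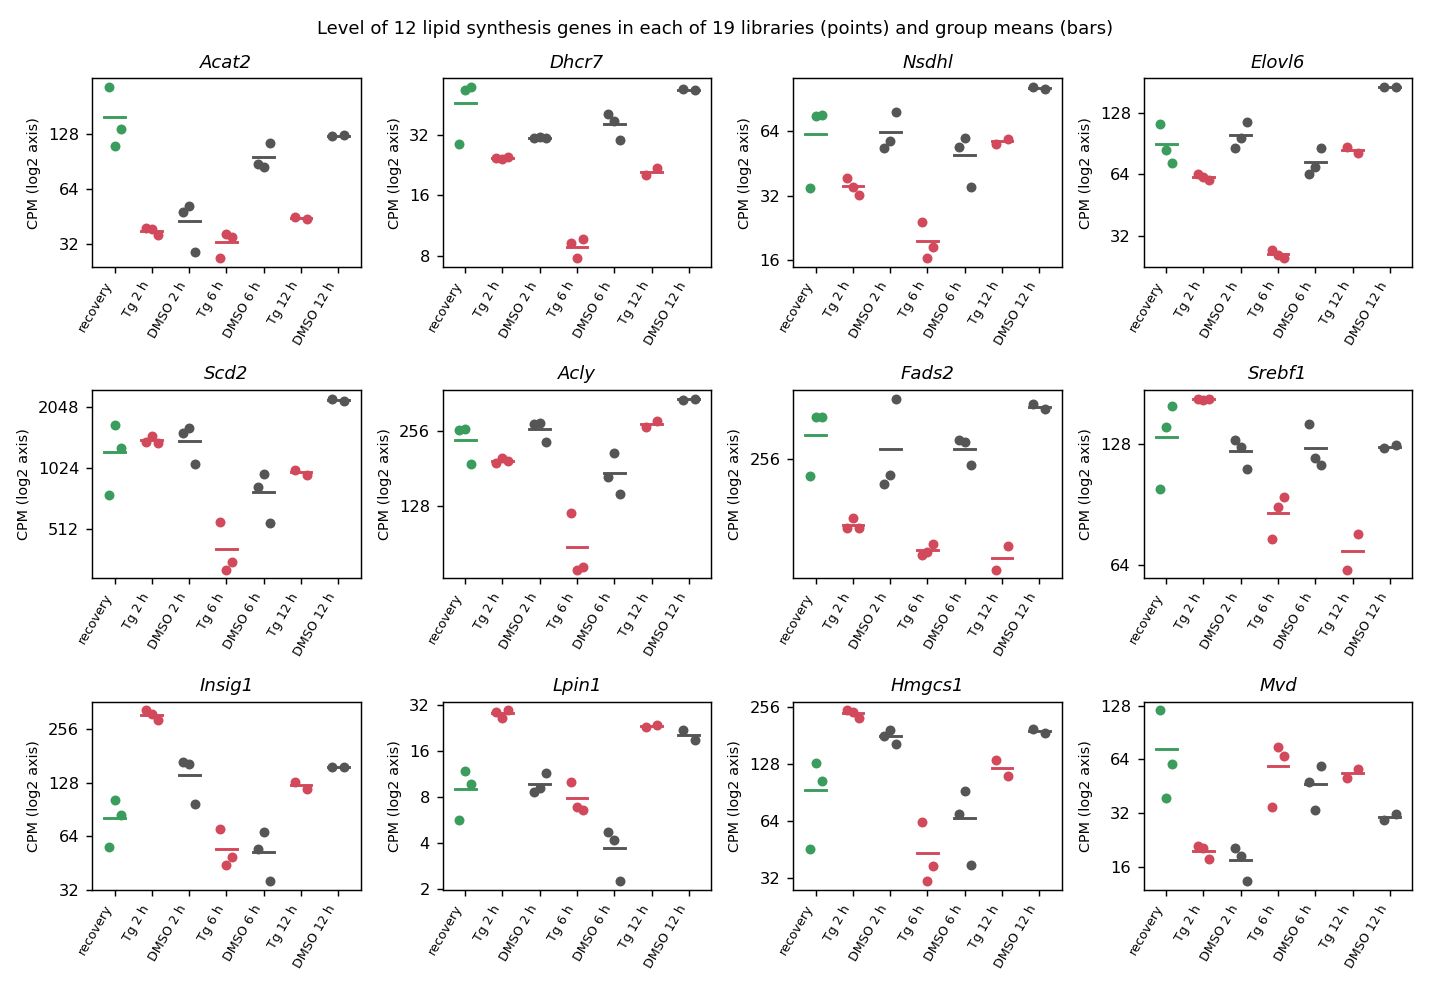
Level of 12 genes (CPM, log2 axis) in each of the 19 libraries (points) with group means (bars), ordered as recovery and then thapsigargin and DMSO at 2, 6 and 12 h. Dhcr7 in thapsigargin at 6 h lies between 7.81 and 9.69 CPM, below its other 16 libraries, and Lpin1 and Insig1 are high in thapsigargin at 2 h.

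At 12 h of thapsigargin, 6 of the 33 members fell and none rose, where 13.1% of all genes tested were called, 6.77% lower and 6.29% higher. The 6 were Acat2, Dhcr7, Scd2, Fads2, Elovl6 and Srebf1. All 6 had also been called lower at 6 h. Each call is against DMSO of the same time and does not describe a level held from 6 h to 12 h. Mean Elovl6 was 25.89 CPM at 6 h and 84.45 CPM at 12 h in thapsigargin, against 73.26 and 171.2 CPM in DMSO. In thapsigargin the means of Acat2, Dhcr7 and Scd2 were also higher at 12 h, and those of Fads2 and Srebf1 lower, which was not tested. The 6 genes make up 6 of the 9 calls at 6 h and 6 of the 6 calls at 12 h. The comparisons at 6 h and 12 h contrast different libraries, but both come from the same fit, with shared scaling and spread. The share of all genes called lower at both times was not counted, so these 6 have no background here. The median difference was -0.39 over the members, against 0.01 over all genes. With 2 libraries a group, 23 members were lower and 9 higher without overlap, where 35.8% and 37.4% of all genes were.

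Acat2 had 45.2 and 43.9 CPM in thapsigargin at 12 h, against 123.8 and 126.1 CPM in DMSO, and fell by 1.49 ± 0.32 (adjusted p = 0.0051, edgeR), 2.80-fold. Dhcr7 had 20.2 and 21.8 CPM in thapsigargin, against 54.1 and 53.2 CPM in DMSO, and fell by 1.35 ± 0.26 (adjusted p = 0.0021), 2.55-fold. In both genes the libraries of a group lay close together and far from those of the other group. Fads2 had 148.1 and 166.5 CPM in thapsigargin, against 335.5 and 327.9 CPM in DMSO (-1.08 ± 0.22, adjusted p = 0.0036). Elovl6 had 87.4 and 81.5 CPM in thapsigargin, against 171.4 and 171.1 CPM in DMSO (-1.02 ± 0.22, adjusted p = 0.0051). Scd2 had 1004 and 948.9 CPM in thapsigargin, against 2248 and 2182 CPM in DMSO (-1.18 ± 0.36, adjusted p = 0.042). Srebf1 had 62.3 and 76.4 CPM in thapsigargin, against 124.8 and 126.6 CPM in DMSO, and fell by 0.86 ± 0.23 (adjusted p = 0.018). Lpin1 stood level, with 22.9 and 23.5 CPM in thapsigargin, against 22.1 and 18.9 CPM in DMSO (0.18 ± 0.35, adjusted p = 0.85). Insig1, with 129.8 and 118.9 CPM in thapsigargin, against 157.9 and 157.6 CPM in DMSO, was not called (-0.34 ± 0.34, adjusted p = 0.65). Mvd lay higher in both drug libraries, with 50.3 and 56.8 CPM in thapsigargin, against 29.3 and 31.5 CPM in DMSO, also without a call (0.82 ± 0.44, adjusted p = 0.28). Leaving out thapsigargin replicate 1 or 2 at 12 h took the adjusted p of Acat2 to 0.05 or 0.055, past the threshold. Fads2 was lost without thapsigargin replicate 1 (adjusted p = 0.068) and Elovl6 without replicate 2 (adjusted p = 0.063). With length and GC offsets Elovl6 (-0.90, adjusted p = 0.078) and Srebf1 (-0.65, adjusted p = 0.13) were not called. Srebf1 was lost without any 12 h library (adjusted p up to 0.22), and Scd2 was called in 7 of the 19 fits that each left out 1 library.

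Most members were called at none of the 3 times of exposure. Sqle had 250.9, 248.6 and 223.1 CPM in thapsigargin at 2 h, against 274.2, 273.3 and 219.6 CPM in DMSO. At 6 h it had 183.5, 128.6 and 138.2 CPM in thapsigargin, against 209.1, 239.3 and 159.1 CPM in DMSO, and at 12 h 379.0 and 362.1 CPM in thapsigargin, against 327.1 and 331.0 CPM in DMSO. Its groups overlapped at 2 h and 6 h, and the log2 differences were -0.09, -0.43 and 0.17. Cyp51, the lanosterol demethylase, had 118.8, 83.4 and 91.5 CPM in thapsigargin at 6 h, against 108.2, 129.0 and 85.4 CPM in DMSO, and differed by 0.18, -0.13 and -0.17 over the 3 times. Fdft1, the squalene synthase, had 103.9, 173.7 and 165.9 CPM in thapsigargin at 6 h, against 149.1, 133.6 and 167.8 CPM in DMSO, with differences of 0.10, -0.02 and 0.24. Neither gene kept 1 direction over time. Pmvk, the phosphomevalonate kinase gene, had 32.4, 71.0 and 61.1 CPM in thapsigargin at 6 h, against 52.1, 35.4 and 65.5 CPM in DMSO, and its groups overlapped. Fads1, the partner desaturase of Fads2, was steady, with 157.7, 159.3 and 161.1 CPM in thapsigargin at 6 h, against 188.8, 183.9 and 178.8 CPM in DMSO. It lay lower in every drug library at each of the 3 times, with differences of -0.23, -0.21 and -0.23 and adjusted p of 0.59, 0.47 and 0.62. Scd1 differed by -0.63, -0.30 and -0.79 (adjusted p of 0.44, 0.64 and 0.33), and Insig2 by 0.08, -0.04 and 0.16.

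The change in response over time was tested as the difference between the drug effects. From 2 h to 6 h the effect became more negative for Dhcr7 (-1.68 ± 0.30, adjusted p = 0.0037), Acat2 (-1.36 ± 0.37, adjusted p = 0.049) and Srebf1 (-0.97 ± 0.26, adjusted p = 0.049) by edgeR. These 3 of 33 members, all lower, compare with 3.99% of all genes, 2.12% higher and 1.87% lower. The effect on Elovl6 (-0.82, adjusted p = 0.087) and on Insig1 (-1.07, adjusted p = 0.16) was not shown to differ between these times. With each of the 19 libraries left out in turn, Dhcr7 was called 19 times, Acat2 2 times and Srebf1 3 times, with adjusted p of up to 0.11 for Acat2 and 0.14 for Srebf1. Between 6 h and 12 h edgeR called 0 members, with 0 further members at an unadjusted p under 0.05 and 0 called by DESeq2, where 0.571% of all genes were called, 0.0388% higher and 0.532% lower. The median difference in response over the members was -0.50 from 2 h to 6 h and 0.05 from 6 h to 12 h, against 0.05 and -0.04 over all genes.

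In recovery, members stood higher than in thapsigargin at 6 h. Of the 33, 14 rose and none fell, so 42.4% were called higher, where 11.6% of all genes were higher and 13.9% lower (25.5% in all). By role these were 7 of 18 sterol enzymes, 2 of 6 regulators and carriers and 5 of 9 fatty acid and lipid genes. The median difference was 0.70 over the members, against 0.04 over all genes. It was 0.84 for sterol enzymes, 0.60 for regulators and carriers and 0.82 for fatty acid and lipid genes. This comparison uses the same thapsigargin libraries as the one at 6 h, so the values of both are given and no agreement between them is read.

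Dhcr7 had 28.9, 53.5 and 55.2 CPM in recovery, against 9.27, 7.81 and 9.69 CPM in thapsigargin at 6 h, and rose by 2.36 ± 0.22 (adjusted p = 1.7e-06, edgeR), 5.14-fold. Acat2 had 229.7, 109.6 and 135.1 CPM in recovery, against 26.9, 36.4 and 35.1 CPM in thapsigargin, and rose by 2.27 ± 0.27 (adjusted p = 1.9e-05), 4.82-fold. The recovery groups of both genes lay clear of the drug libraries, with replicate 1 lowest for Dhcr7 and highest for Acat2. Elovl6 had 112.3, 84.2 and 72.4 CPM in recovery, against 27.1, 25.8 and 24.8 CPM in thapsigargin (1.79 ± 0.18, adjusted p = 4.6e-06). Nsdhl had 34.9, 75.5 and 76.7 CPM in recovery, against 24.1, 16.4 and 18.5 CPM in thapsigargin (1.67 ± 0.28, adjusted p = 0.00044). Both rose without overlap, as did Scd2 at 3-fold (1.58 ± 0.30, adjusted p = 0.0011) and Acly at 2.68-fold (1.42 ± 0.22, adjusted p = 0.00017). Fads2 rose by 0.82 (adjusted p = 0.0033), Srebf2 by 0.70 (adjusted p = 0.032) and Srebf1 by 0.63 (adjusted p = 0.02).

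The remaining calls were Tm7sf2, Mvk, Fdps, Hmgcs1 and Fasn, with rises of 1.3, 1.29, 1.18, 1.1 and 1.1. Mvk had 162.2, 48.7 and 74.8 CPM in recovery, against 24.8, 50.2 and 41.6 CPM in thapsigargin at 6 h. Fdps had 17.6, 7.21 and 6.07 CPM in recovery, against 5.12, 4.2 and 4.17 CPM in thapsigargin. Fasn had 1544, 554.8 and 531.5 CPM in recovery, against 328.4, 463.0 and 437.3 CPM in thapsigargin. In all 3 genes recovery replicate 1, the library with 14.9% mitochondrial reads, was by far the highest. Without it the log2 differences were 0.66 for Mvk (adjusted p = 0.092), 0.56 for Fdps (adjusted p = 0.073) and 0.40 for Fasn (adjusted p = 0.13), so none was called. TMM also gave recovery replicate 1 a smaller size than its 23.59 gene megareads, which raised its CPM. Mvk had 2015 reads there, printed as 162.2 CPM. With total counts in place of TMM the rises were 0.78 for Fdps (adjusted p = 0.057) and 0.69 for Fasn (adjusted p = 0.027). The parts of the scaling and of the mitochondrial share in these values were not tested. Without thapsigargin replicate 1, Mvk (adjusted p = 0.065), Fasn (0.079) and Tm7sf2 (0.05) were also lost, as were Fdps (0.055) and Fasn (0.053) without thapsigargin replicate 3. Hmgcs1 overlapped between the groups, with 45.6, 129.6 and 104.5 CPM in recovery, against 63.1, 30.8 and 36.9 CPM in thapsigargin (adjusted p = 0.034). Its call was lost without thapsigargin replicate 2 or 3 or recovery replicate 2 or 3 (adjusted p up to 0.12). Srebf1 was lost without thapsigargin replicate 1 (0.073) or recovery replicate 3 (0.088), and Srebf2 in 8 of the 19 fits (up to 0.13). With length and GC offsets neither Srebf1 (0.44, adjusted p = 0.16) nor Srebf2 (0.50, adjusted p = 0.2) was called in recovery.

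Against DMSO at 6 h, edgeR called 0 of the 33 members in recovery, where it called 0.327% of all genes (59). At an unadjusted p under 0.05 there were 6 members, without a count over all genes to set beside them. DESeq2 called 1 member, Lpin1, and more of all genes than edgeR did, with the count given in the closing sections. Lpin1 had 5.64, 11.8 and 9.75 CPM in recovery, against 4.76, 4.2 and 2.25 CPM in DMSO, a difference of 1.28 ± 0.29 (adjusted p = 0.085, edgeR). It was the single member higher without overlap, where 4.71% of all genes were. Scap was the single member lower without overlap (-0.27 ± 0.14, adjusted p = 0.59), where 5.43% of all genes were. The members' median was 0.33, against 0.06 over all genes. Acat2 stood 0.73 ± 0.26 (adjusted p = 0.34) and Fdps 0.94 ± 0.33 (adjusted p = 0.32) above DMSO without a call, and Dhcr7 differed by 0.35 ± 0.21 (adjusted p = 0.65). A call missed here does not show equal levels. Without the libraries of high mitochondrial share 3 members were called higher (Lpin1, Dhcr7 and Lss) and 0 lower. That fit also called more of all genes, with the count given in the closing sections. The 3 are therefore not to be set against the 0.327% of the main fit.

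**Figure D4:**
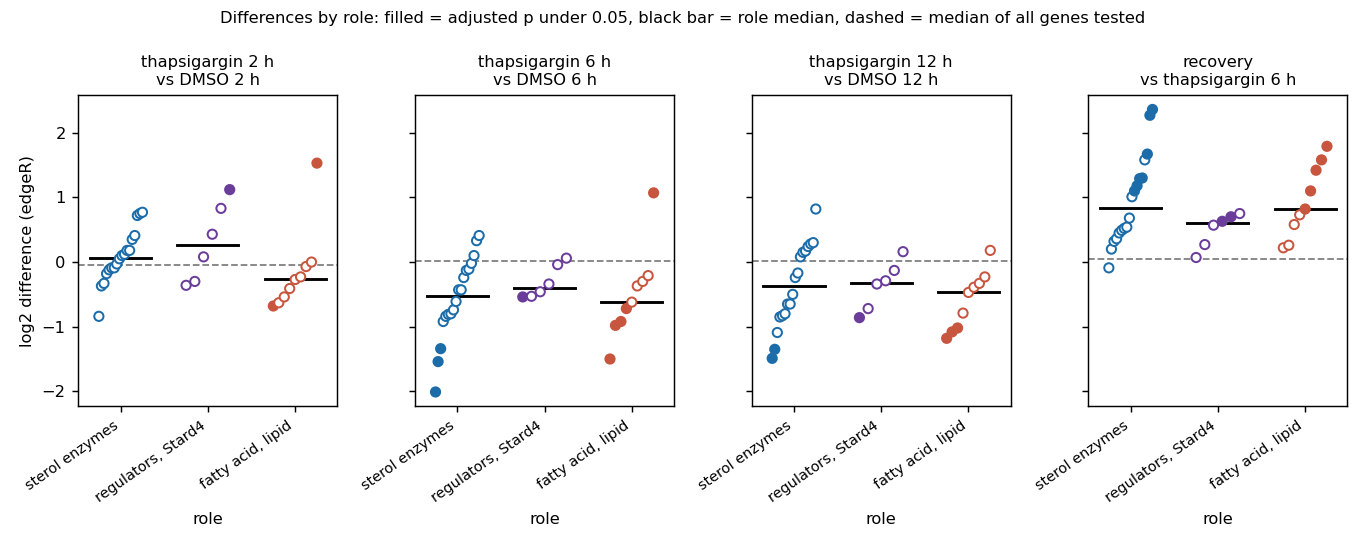
Log2 differences (edgeR, log2 units) of the 33 genes split by role in 4 comparisons, with filled points for an adjusted p under 0.05, black bars for role medians and a dashed line for the median of all genes tested. The role medians lie at -0.52, -0.40 and -0.62 at 6 h and at 0.84, 0.60 and 0.82 between recovery and thapsigargin at 6 h.

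The members also differed between the DMSO groups. Against DMSO at 2 h, 6 rose and 11 fell in DMSO at 6 h, where 24.6% and 25% of all genes did (49.6% in all). All 6 that rose were sterol enzymes, namely Mvk (1.81), Pmvk (1.70), Tm7sf2 (1.6), Mvd (1.43), Ebp (1.41) and Acat2 (1.15). The lowest were Idi1 (-2.64), Hsd17b7 (-2.27), Scd1 (-1.92), Insig1 (-1.44) and Hmgcs1 (-1.43). Against DMSO at 6 h, 17 rose and none fell in DMSO at 12 h, where 18.7% and 16.7% of all genes did (35.4% in all), led by Idi1 (3.24) and Lpin1 (2.45). Without overlap between the DMSO groups, 9 members were higher and 13 lower at 6 h than at 2 h, where 30.3% and 31.3% of all genes were. At 12 h against 6 h, 24 were higher and 5 lower, where 37.1% and 34.4% of all genes were. Across 13998 protein-coding genes of the same libraries, the Spearman correlation of the log2 difference with exon length was -0.48 from 2 h to 6 h and 0.47 from 6 h to 12 h. Over the 33 members it was -0.33 and 0.30. For thapsigargin against DMSO at 6 h the same correlations were 0.12 over protein-coding genes and 0.03 over the members. With length and GC offsets the differences of DMSO at 6 h against 2 h shrank to 0.98 for Mvk, 0.46 for Pmvk, 0.82 for Ebp and 0.72 for Acat2, and Mvd was not called (0.18, adjusted p = 0.32), while Tm7sf2 stood at 1.56. For DMSO at 12 h against 6 h the calls of Acaca, Elovl6, Lss, Msmo1 and Sqle were lost with these offsets, at 0.37, 0.48, 0.67, 0.13 and 0.42. The log2 excess of long over short genes was lower in every DMSO library at 6 h than in those at 2 h and 12 h, and the part of this balance in the differences beyond the offsets was not tested.

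**Figure D5:**
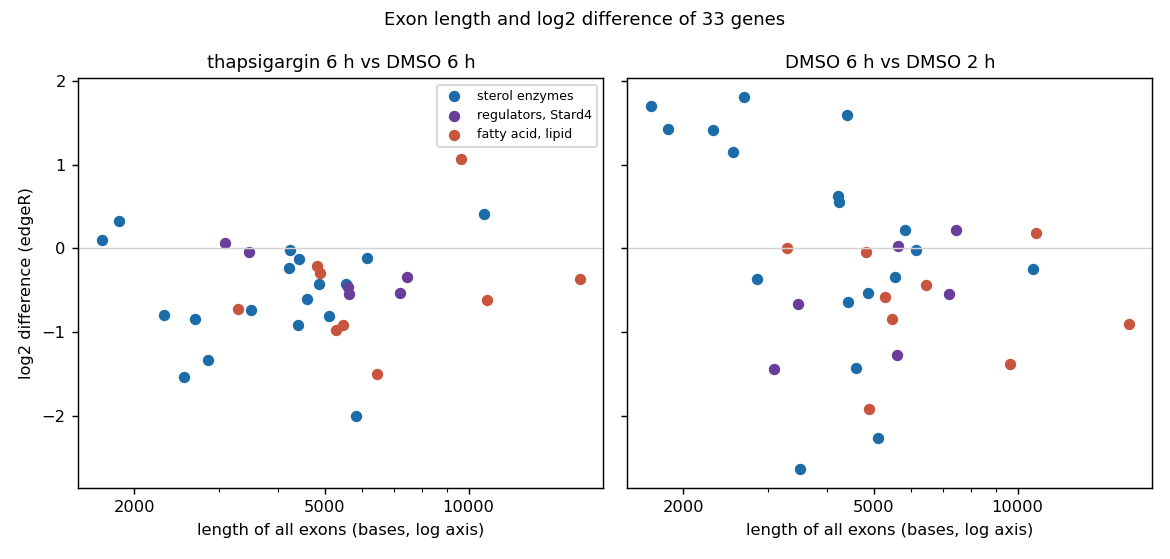
Exon length (bases, log axis) against log2 difference (edgeR) of the 33 genes, for thapsigargin against DMSO at 6 h and for DMSO at 6 h against DMSO at 2 h. The Spearman correlation over the members is 0.03 in the drug comparison and -0.33 between the DMSO groups.

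Other genes of the pathway were counted from lists outside the 33. Of 8 other sterol synthesis genes, 1 fell and 0 rose at 6 h of thapsigargin against DMSO. Their median log2 difference was 0.0, against -0.52 for the 18 sterol enzymes among the members. In recovery against thapsigargin at 6 h, 1 of these 8 fell and 0 rose, with a median of -0.12, against 0.84 for the 18. Of 14 tested further SREBP targets (of 15 listed), 3 fell and 1 rose at 6 h of thapsigargin against DMSO, where 8.79% and 13% of all genes did. Rdh11, a retinol dehydrogenase, had 19.4 to 25.9 CPM in thapsigargin, against 32.5 to 43.2 CPM in DMSO, and fell by 0.81 ± 0.20 (adjusted p = 0.008, edgeR). Mid1ip1, an activator of acetyl-CoA carboxylase named after its value was seen, rose by 0.79 (adjusted p = 0.027), with groups that overlapped, and was lost without any of 4 of the 6 h libraries (adjusted p up to 0.12). At 12 h 2 of these 14 fell, where 6.77% of all genes did, among them Acss2, an acetyl-CoA synthetase, by 1.05 (adjusted p = 0.024). Without any 12 h library the adjusted p of Acss2 was 0.1 to 0.2. In recovery against thapsigargin at 6 h, 6 rose and 1 fell, where 11.6% and 13.9% of all genes did, with Slc25a1, the mitochondrial citrate carrier, and Pcyt2, an enzyme of phosphatidylethanolamine synthesis, both at 1.61 (adjusted p = 0.0034 and 0.018). Recovery replicate 1 moved both values: without it Slc25a1 stood at 0.94 (adjusted p = 0.01) and Pcyt2 at 0.66 (adjusted p = 0.16). Pcyt2 was also lost without thapsigargin replicate 1 (adjusted p = 0.074).

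Of 12 genes that cut SREBP or degrade sterol enzymes, 2 rose and 1 fell at 6 h, where 13% and 8.79% of all genes did. The ubiquitin-conjugating enzyme gene Ube2g2 had 231.8 to 293.8 CPM in thapsigargin, against 115.4 to 129.3 CPM in DMSO, and rose by 1.17 ± 0.19 (adjusted p = 0.00042, edgeR). Erlin1, an ER membrane protein that takes part in sterol-dependent degradation, rose by 1.07 (adjusted p = 0.027). The ubiquitin ligase gene Rnf145 fell by 1.64 (adjusted p = 0.019). Erlin1 was lost without DMSO replicate 1 or 3 or thapsigargin replicate 1 (adjusted p up to 0.14), and Rnf145 without DMSO replicate 1 or 2 or thapsigargin replicate 2 or 3 (up to 0.082). At 12 h Ube2g2 (1.35) and Erlin1 (1.47) were called higher again, Erlin1 not without any of the 12 h libraries (adjusted p up to 0.18). In recovery Ube2g2 stood 1.70 and Erlin1 1.31 lower than in thapsigargin at 6 h (adjusted p = 1.4e-05 and 0.0076).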

How the data were processed

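Bulk poly(A) RNA-seq of C2C12 cells gave 19 libraries. The tools named in the submitters' processing notes are Trim Galore, STAR 2.5.3a, bedtools 2.31.0 and DESeq2, with the build mm10. In the deposited files each gene has a raw count, a whole number that was not normalized. Their 5 closing lines of unassigned reads, 13.7 to 28.7% of each library, were left out. Which program counted the reads, with which strand setting and annotation, is not given in the sources used here. Among 55401 identifiers, 55141 matched GENCODE M21 (GRCm38, the assembly of mm10).

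Counts were scaled by TMM, filtered with filterByExpr by group and tested with edgeR 4.0.16 (R 4.3.3, limma 3.58.1) in 1 quasi-likelihood model with a mean per group and no replicate block. Tests were two-sided, with Benjamini-Hochberg adjustment over 18039 genes. The common biological coefficient of variation was 0.352. RPKM used all exon bases of a gene. Promoter letters came from RefSeq (GRCm38.p6) and were searched in Python 3.11.15.

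Alternatives were DESeq2 1.42.0 and its size factors, total count scaling, no filter, length and GC offsets, a replicate block, and leaving out each library or those above 10% mitochondrial reads. The members and lists were chosen with earlier results of these data known. All members may be named, and of each other list the called genes with the 3 largest differences in a comparison; some genes this rule selects are not reported here. Scripts were tested on simulated counts. Precision rests on depth and on 2 or 3 libraries a group.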

Additional observations from a re-analysis of the deposited data

Results flagged for a closer look

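The effect of thapsigargin differed between 6 h and 2 h for 3 members, by the test of the difference itself. For Dhcr7 the log2 difference against DMSO was -2.01 at 6 h and -0.33 at 2 h, and the difference in response was -1.68 (adjusted p = 0.0037, edgeR). It lost its call only with total count scaling (adjusted p = 0.1). For Acat2 the differences were -1.54 at 6 h and -0.18 at 2 h, with a difference in response of -1.36 (adjusted p = 0.049). For Srebf1 they were -0.54 at 6 h and 0.43 at 2 h, with a difference in response of -0.97 (adjusted p = 0.049). The calls of Acat2 and Srebf1 were lost under most alternatives, among them the replicate block. Libraries at 6 h had a lower log2 excess of long over short genes than those at 2 h in both treatments, and the part of this in the 3 results was not tested.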

How the results depend on the processing

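Counts of calls depended on the scaling and on the spread shared by all groups, and the cause was not tested. A count of members given without 1 over all genes is not read as a change particular to the members. Total count scaling gave (members, then all genes) 1 and 518 calls for thapsigargin against DMSO at 2 h, 3 members at 6 h, and 2 and 1545 at 12 h. It gave 9 members for recovery against thapsigargin at 6 h, 17 genes for recovery against DMSO at 6 h, 1 and 321 for the response at 6 h minus 2 h, and 30 genes for 12 h minus 6 h. It moved the median of all genes at 2 h to 0.17 and at 6 h to 0.14. DESeq2 gave 8 and 1689 at 2 h, 1 and 422 for recovery against DMSO, and 1566 and 425 genes for the differences in response. Its size factors gave 1 member for recovery against DMSO. With no filter, 1 member was called for the response at 6 h minus 2 h. Length and GC offsets gave 1339 genes at 2 h, 16 members at 6 h, 1 and 152 for recovery against DMSO, and 1164 and 205 genes for the differences in response. They reversed Acaca (0.04, adjusted p = 0.92) and Msmo1 (0.60, 0.011) in DMSO at 6 h against 2 h, and Mvd (0.61, 0.012) in DMSO at 12 h against 6 h. Without the libraries of high mitochondrial share the counts were 6 and 1859 at 2 h, 19 and 6588 at 6 h, 4539 genes at 12 h, 23 members for recovery against thapsigargin, 3 and 377 for recovery against DMSO, 9 and 1975 for the response at 6 h minus 2 h, 732 genes for 12 h minus 6 h, and 10088 genes for DMSO at 12 h against 6 h.

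Leaving out 1 library at a time gave 1 to 8 members (320 to 1901 genes) at 2 h, 7 to 15 (2897 to 5673) at 6 h, 2 to 7 (1123 to 3615) at 12 h, 10 to 20 (3505 to 5354) for recovery against thapsigargin, 0 to 1 (22 to 125) for recovery against DMSO, 1 to 5 (421 to 1608) for the response at 6 h minus 2 h and 0 (12 to 369) for 12 h minus 6 h. For the DMSO groups it gave 13 to 23 (6169 to 10763) at 6 h against 2 h and 8 to 21 (1529 to 9103) at 12 h against 6 h. Where 1 library remained in a group, it is assumed to vary like the others.

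Same-numbered libraries did not deviate together in a consistent way. Between thapsigargin and DMSO at 6 h the correlations of their deviations were 0.53, -0.93 and 0.72. Libraries with different numbers correlated as strongly, at 0.93 for thapsigargin replicate 1 with DMSO replicate 2 and 0.91 for replicate 2 with replicate 3. This check therefore does not show pairing by number and cannot exclude it. With the replicate block 2 members were called at 2 h, 8 at 6 h, 5 at 12 h, 13 for recovery against thapsigargin and 1 for the response at 6 h minus 2 h. Counts over all genes in that fit are not given here, so no change particular to the members is read.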

Other observations

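Genes that dispose of cholesterol, outside the synthesis set, changed in both directions. Of 13 genes of the sterol sensor LXR, of efflux and of storage, 4 rose and 3 fell at 6 h of thapsigargin against DMSO, where 13% and 8.79% of all genes did. Stard5, a sterol-binding protein, had 70.3 to 73.4 CPM in thapsigargin, against 5.58 to 7.07 CPM in DMSO, and rose by 3.55 ± 0.20 (adjusted p = 2e-08, edgeR). Ch25h, which makes an oxysterol, had 19.6 to 36.8 CPM in thapsigargin, against 1.90 to 3.17 CPM in DMSO (3.55 ± 0.29, adjusted p = 4.4e-07). Cyp27a1, a sterol hydroxylase, was also called higher but at 0.283 to 0.59 CPM in thapsigargin, against 0 to 0.061 CPM in DMSO, so no fold is given. The efflux pump genes Abcg1 and Abca1 fell by 3.87 ± 0.40 (adjusted p = 8.2e-06) and 3.09 ± 0.69 (adjusted p = 0.0064) at 12 h, and Abca1 was lost without either 12 h thapsigargin library (adjusted p = 0.067 and 0.093). Abcg1 had 1.07 to 1.48 CPM in thapsigargin at 12 h, against 16.4 to 21.1 CPM in DMSO, and the 2 groups lay far apart. Stard5 stood at 78.4 to 80.1 CPM in thapsigargin at 12 h, against 6.36 to 6.56 CPM in DMSO (3.62 ± 0.25, adjusted p = 2.7e-07).

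Of 14 genes of neutral lipid synthesis, storage and breakdown, 3 rose and none fell at 6 h, where 13% and 8.79% of all genes did. Dgat2, the last enzyme of triglyceride synthesis, had 23.4 to 31.9 CPM in thapsigargin, against 9.93 to 11.3 CPM in DMSO, and rose by 1.42 ± 0.20 (adjusted p = 9.1e-05, edgeR). Lpin3, a relative of Lpin1, had 132.4 to 155.2 CPM in thapsigargin, against 61.0 to 74.4 CPM in DMSO (1.09, adjusted p = 0.0041), and the lipid droplet coat gene Plin2 rose by 0.76 (adjusted p = 0.028). Plin2 was lost without any 6 h library (adjusted p up to 0.1). At 12 h 3 rose and 1 fell, where 6.29% and 6.77% of all genes did, with Lpin3 at 2.16 and Dgat2 at 1.74 (adjusted p = 0.00017 and 0.00016) and Acadm, a fatty acid oxidation enzyme, at -1.25 (adjusted p = 0.047), which was lost without any 12 h library (up to 0.24). In recovery against thapsigargin at 6 h, 2 rose and 5 fell, where 11.6% and 13.9% of all genes did, led by the lipase gene Lipe (2.01), Lpin3 (-1.65) and Dgat2 (-1.46). Without recovery replicate 1 Lipe stood at 1.21 (adjusted p = 0.018).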
